A study of Homo sapiens with 4 samples.

Results

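The genes described here were the zinc finger genes of chromosome 19, chosen as the protein-coding genes of that chromosome in GENCODE release 44 (GRCh38) whose name is ZNF followed by digits and at most 1 letter. There were 246 such members, which was 16.7% of the 1476 protein-coding genes of the chromosome, among 20033 protein-coding genes in all. The study immunoprecipitated chromatin bound by RNA polymerase II (Pol II) from SK-OV-3 cells, a human cell line of ovarian cancer, and sequenced the recovered DNA. The cells carried a lentiviral short hairpin RNA, either shRRN3, directed against RRN3, the initiation factor of RNA polymerase I, or the control shLacZ, directed against a bacterial gene. Each hairpin had 1 Pol II library, represented by 1 list of peaks, and 1 input library, which was not analysed here. Which of the RRN3 hairpins that the methods describe was used in the immunoprecipitation is not given in the sources used here.

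There were no replicates. Every difference between the lists below therefore compares 2 libraries and not 2 conditions, it could not be set against a spread between replicates, and no p-value was computed. The lists give no read numbers, and the depth is therefore unknown. They held 4014 peaks in shLacZ and 14363 in shRRN3, of which 150 and 594 lay on chromosome 19. PAX8, a transcription factor of the Mullerian lineage, held a peak at its start in both lists (scores 148 and 354), whereas MUC16, MSLN, WT1 and ERBB2, further genes known from ovarian carcinoma, held none in either. Of the epithelial markers, EPCAM (63.0) and the keratin genes KRT8 and KRT18, which share a peak (121), held one in shRRN3 alone, as did VIM, a mesenchymal marker (623), and CDH1 and KRT19 held none. PTPRC, PECAM1 and ALB, markers of blood, endothelial and liver cells, held none at their starts in either list. Over the gene, PECAM1 had 1 peak in shRRN3, and VIM had 2 in shLacZ and 9 in shRRN3.

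Most zinc finger genes of this kind encode repressors that read DNA with tandem C2H2 zinc fingers, small loops held by a zinc ion between cysteines and histidines. Many also carry a KRAB domain, which recruits the corepressor TRIM28 and, through it, enzymes and readers of histone H3 lysine 9 methylation, and many of their known targets are transposable elements. The genes arose by repeated tandem duplication, so they stand in clusters of near relatives, and the fingers are usually encoded together in the last exon. In several cell types the last exons are themselves packed in methylated chromatin, and ZNF274 is known to bind there.

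The annotated proteins had these features. All 246 members encoded at least 1 finger by the spacing of cysteines and histidines, with a median of 13 and a range of 1 to 39, and 163 members (66.3%) held a string typical of the KRAB domain. In the median member 87.6% of the coding bases lay in the last coding exon. Neighbouring members that lay within 500 kb of each other formed 10 clusters of at least 5 members, numbered along the chromosome, which held 232 of the members, and 14 stood outside.

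The stretches below show the DNA at 4 starts and inside 2 genes on which the results turn (hg38, each written on the strand of its gene). ZNF274 had the highest-scoring start peak in both lists and is shown at chr19:58182779-58183058, plus strand. ZNF69 had the highest-scoring start peak of the members found in shRRN3 alone and is shown at chr19:11887532-11887811, plus strand. ZNF584, at chr19:58401254-58401533 on the plus strand, had a start peak in shLacZ alone, and ZNF461, at chr19:36666824-36667103 on the minus strand, stood in the cluster where the lists differed most. These 4 run from 250 bases before the annotated start to the first bases of the gene, and capitals mark the GC box (GGGCGG) and the ETS-type word (CCGGAAG) on either strand.
ZNF274: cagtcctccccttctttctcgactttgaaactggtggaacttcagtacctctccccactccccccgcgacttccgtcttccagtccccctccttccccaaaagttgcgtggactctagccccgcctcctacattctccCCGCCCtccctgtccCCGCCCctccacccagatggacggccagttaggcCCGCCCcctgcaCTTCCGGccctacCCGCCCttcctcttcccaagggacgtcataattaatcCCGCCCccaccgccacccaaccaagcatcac
ZNF69: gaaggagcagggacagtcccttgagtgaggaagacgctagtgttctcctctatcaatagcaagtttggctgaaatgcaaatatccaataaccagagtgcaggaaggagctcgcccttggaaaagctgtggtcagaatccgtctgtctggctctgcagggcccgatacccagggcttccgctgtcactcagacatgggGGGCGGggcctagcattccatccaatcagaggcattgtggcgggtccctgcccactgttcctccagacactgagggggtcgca
ZNF584: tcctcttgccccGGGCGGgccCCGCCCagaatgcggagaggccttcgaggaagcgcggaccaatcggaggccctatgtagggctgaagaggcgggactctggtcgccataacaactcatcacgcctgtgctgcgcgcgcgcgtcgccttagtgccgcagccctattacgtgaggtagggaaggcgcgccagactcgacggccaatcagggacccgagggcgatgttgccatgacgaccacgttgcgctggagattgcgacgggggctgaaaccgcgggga
ZNF461: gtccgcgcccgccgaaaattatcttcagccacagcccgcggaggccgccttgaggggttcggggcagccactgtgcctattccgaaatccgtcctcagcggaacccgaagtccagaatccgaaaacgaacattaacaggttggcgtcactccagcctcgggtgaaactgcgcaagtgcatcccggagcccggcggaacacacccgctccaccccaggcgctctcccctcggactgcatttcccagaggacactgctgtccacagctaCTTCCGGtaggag

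Inside ZNF43 lay the highest-scoring peak over any member in both lists, and 200 bases at the centre of the shRRN3 peak are given at chr19:21835740-21835939, minus strand, within an intron. Neither word occurs there, so nothing is in capitals. ZNF699 was the only member whose last-exon peaks in the lists overlapped each other, and the coding stretch that they shared, chr19:9295492-9295779, is given in whole codons and so moved by 1 base, at chr19:9295493-9295780, minus strand. Capitals there mark the codons of 3 linkers, the short conserved peptides that join a finger to the next, so this stretch is part of the tandem finger array.
ZNF43: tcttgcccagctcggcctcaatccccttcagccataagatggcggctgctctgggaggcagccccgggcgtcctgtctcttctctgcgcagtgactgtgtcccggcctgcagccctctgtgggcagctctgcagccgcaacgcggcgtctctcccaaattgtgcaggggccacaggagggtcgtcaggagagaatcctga
ZNF699: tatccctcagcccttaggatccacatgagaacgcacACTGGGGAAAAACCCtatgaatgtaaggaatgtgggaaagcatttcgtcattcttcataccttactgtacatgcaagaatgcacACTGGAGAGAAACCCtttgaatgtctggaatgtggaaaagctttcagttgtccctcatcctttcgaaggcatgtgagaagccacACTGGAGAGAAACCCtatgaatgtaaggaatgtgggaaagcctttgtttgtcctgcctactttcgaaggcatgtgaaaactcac

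Pol II peaks at the starts of the members were examined first. A member was counted where the midpoint of a peak lay within 1 kb of its annotated start (a start peak). In shLacZ 20 of the 246 members had one, or 8.13% (95% Clopper-Pearson interval 5.04% to 12.3%), beside 7.56% of all protein-coding genes. In shRRN3 there were 95, or 38.6% (32.5% to 45%), beside 23.7% of all protein-coding genes. The share was 21.1% (18.8% to 23.4%) among the 1230 other protein-coding genes of chromosome 19 and 34.0% (28.3% to 40.1%) among the 262 ZNF genes of other chromosomes. In shLacZ these groups had 6.18% (4.90% to 7.67%) and 11.1% (7.54% to 15.5%). The intervals here and below cover counting error only and treat genes as independent, although near starts can share a peak.

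**Figure D1:**
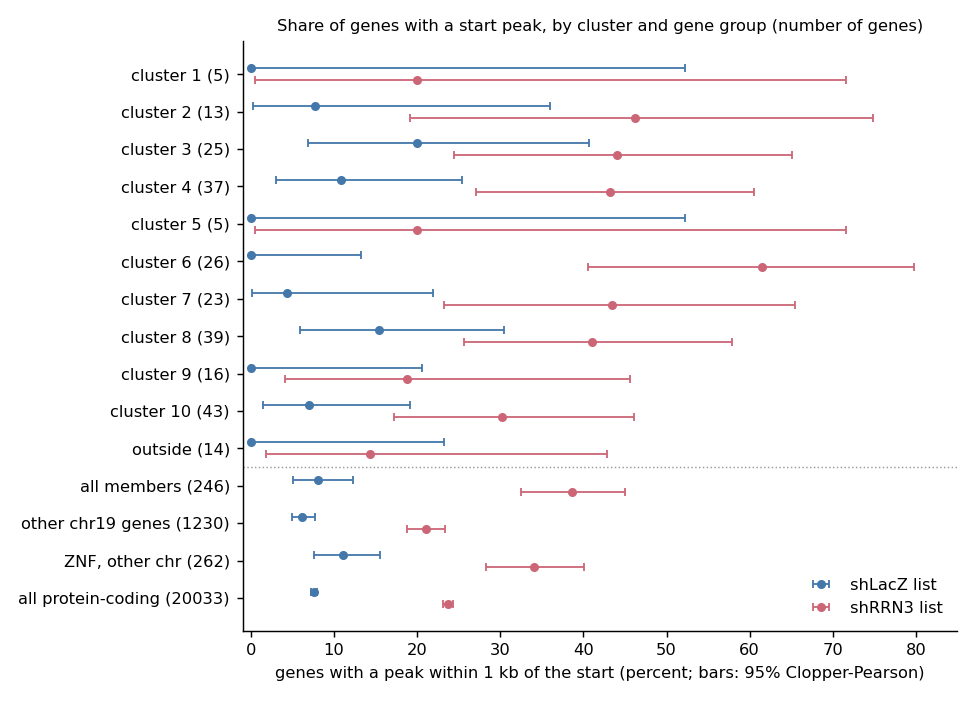
The horizontal axis gives the percent of genes with a start peak, and each row is a cluster or a gene group with its number of genes; points are shares in the shLacZ list (blue) and the shRRN3 list (red) and bars are 95% Clopper-Pearson intervals. The members stand at 8.13% and 38.6%, beside 7.56% and 23.7% of all protein-coding genes, and cluster 6 runs from 0% to 61.5%.

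Set gene by gene, 16 members (6.50%) had a start peak in both lists, beside 6.41% of all protein-coding genes, and 4 (1.63%) in shLacZ alone, beside 1.15%. A further 79 (32.1%, interval 26.3% to 38.3%) had one in shRRN3 alone, beside 17.3% of all protein-coding genes. The other 147 (59.8%, 53.3% to 65.9%) had one in neither list, beside 75.1%. Of the ZNF genes of other chromosomes, 24.8% (19.7% to 30.5%) had one in shRRN3 alone. Of the members without a start peak in shLacZ, 35.0% (28.8% to 41.6%) had one in shRRN3, beside 18.7% of all such genes. Of those with a start peak in shLacZ, 16 of 20 (80.0%, 56.3% to 94.3%) also had one in shRRN3, beside 84.8%. The 16 shared members were 16.8% of the 95 in shRRN3, beside 27% of all protein-coding genes with a start peak there.

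The start peaks of the members had lower median scores than those of all protein-coding genes in both lists. The deposited score was read as a p-value on the −log10 scale multiplied by 10, starts at about 50 in both lists, and depends on depth. The median best start peak scored 60.1 in shLacZ and 79.7 in shRRN3, beside 70.6 and 90.7 over all protein-coding genes with a start peak. The ZNF genes of other chromosomes had lower medians than all genes as well, 63.2 and 82.4. In shRRN3, 29 members (11.8%) had a best start peak scoring under 65.58, 45 (18.3%) one from there to under 102.86, and 21 (8.54%, interval 5.36% to 12.8%) one of at least 102.86. The same bands held 5.84%, 8.15% and 9.74% of all protein-coding genes, and 12.2%, 11.5% and 10.3% of the ZNF genes of other chromosomes. The share of members thus stood above that of all genes in the low and the middle band and not in the highest. The upper limit leaves as many peaks in the shRRN3 list as the shLacZ list has, and with this reduced list the members had 21 start peaks in shRRN3 against 20 in shLacZ, of which 4 members were the same (ZNF627, ZNF708, ZNF675, ZNF274). Of the 20 shLacZ members these 4 were 20.0%, beside 56.1% of all protein-coding genes with a start peak in shLacZ.

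**Figure D2:**
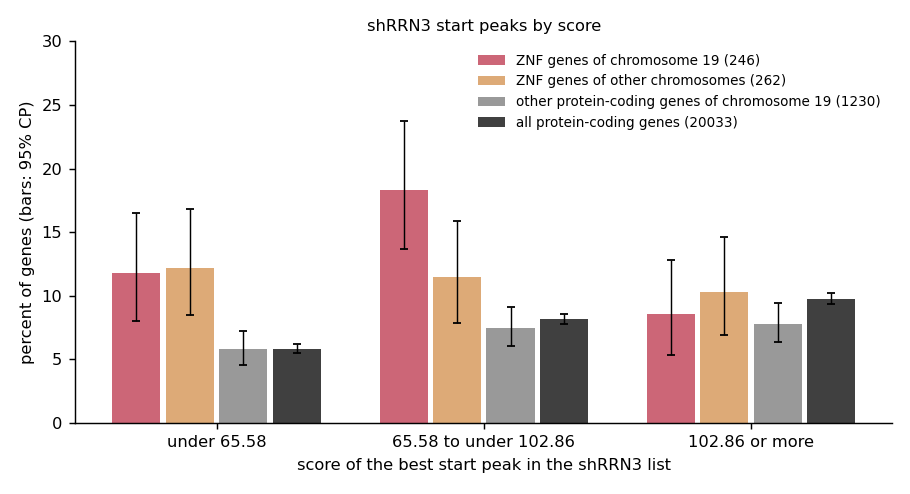
The vertical axis gives the percent of genes whose best start peak in the shRRN3 list falls in each band of score (horizontal axis), for 4 gene groups with their numbers of genes; error bars are 95% Clopper-Pearson intervals. The members hold 11.8%, 18.3% and 8.54% in the 3 bands, beside 5.84%, 8.15% and 9.74% of all protein-coding genes.

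Start peaks of the members were narrow in shLacZ, with a median width of 404 bp, and wider in shRRN3, with 621 bp, beside 485 bp and 640 bp over all protein-coding genes. The midpoint lay downstream of the start in 15 of 20 members in shLacZ and in 52 of 95 in shRRN3, which was 75.0% and 54.7%, beside 58.5% and 51.9% of all protein-coding genes with a start peak. Within the 250 bp just downstream of the start there were 5.69 peak midpoints per 100 members in shLacZ and 15.9 in shRRN3, beside 3.12 and 7.94 per 100 protein-coding genes. In the 250 bp just upstream there were 2.03 and 15.4, beside 2.44 and 8.75.

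**Figure D3:**
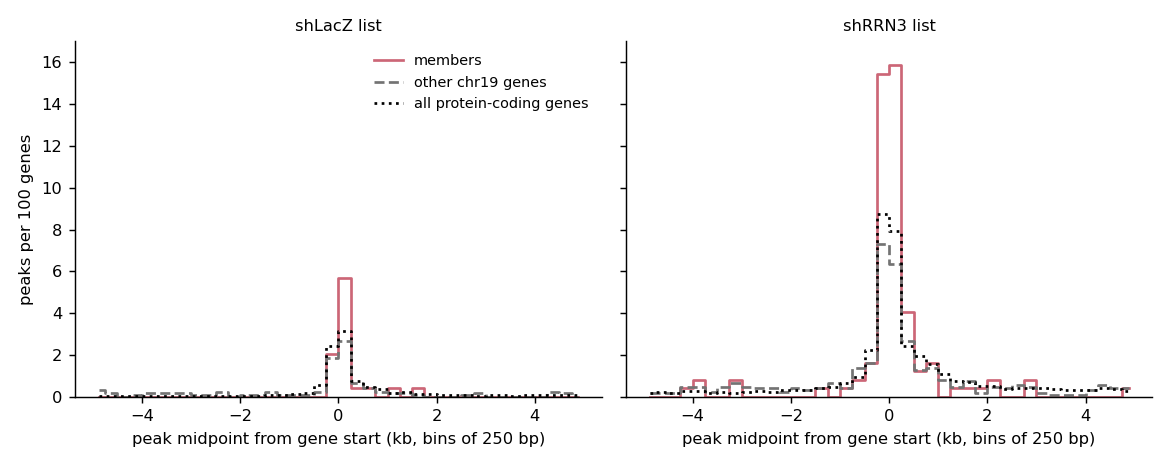
The vertical axis gives peak midpoints per 100 genes in bins of 250 bp, and the horizontal axis the distance from the gene start in kb, for the shLacZ list (left) and the shRRN3 list (right); lines are the members (red), the other protein-coding genes of chromosome 19 (dashed) and all protein-coding genes (dotted). The members reach 5.69 and 15.9 just downstream of the start, beside 3.12 and 7.94 for all protein-coding genes.

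Among the 16 members with a start peak in both lists, ZNF274, which binds the ends of other zinc finger genes and recruits the methyltransferase SETDB1, stood highest. Its start peak scored 211 over 1127 bp in shLacZ and 281 over 1352 bp in shRRN3. ZNF708 scored 66.3 and 131. These pairs were higher in shRRN3, whereas ZNF627 scored 140 in shLacZ and 126 in shRRN3 with a peak that lies nearer to the start of ELOF1, a transcription elongation factor gene on the opposite strand. ZNF417, a repressor of endogenous retroviruses, had 120 in shLacZ and 52.1 in shRRN3, the largest fall in score of the pairs.

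The next members of this group lay closer to the lower limit of the lists. ZNF675, an inhibitor of TRAF6 signalling, scored 62.2 and 114, and ZNF415 57.7 and 98.5. For ZNF562 the values were 53.0 and 103, from peaks at different distances from its start, and another shRRN3 peak overlapped its shLacZ peak. ZNF227 scored 54.3 and 97.8. ZNF93, which represses young LINE-1 elements, scored 58.5 and 95.9. Over the 15 distinct pairs of peaks of the 16 members, since ZNF28 and ZNF468 share theirs, the score was higher in shRRN3 in 11 and the peak wider in 12, with median scores of 66.3 and 95.9. Pairs were not counted over all protein-coding genes. Over all of these with a start peak, the median score was also higher in shRRN3 (70.6 and 90.7), and so was the median width (485 and 640 bp). Scores of libraries of different depth are not on a common scale, so these pairs are given as a description.

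The 79 members with a start peak in shRRN3 alone included higher-scoring peaks than most of those in both lists. ZNF69 had a peak of score 193 over 1080 bp, and ZNF528 had 187 over 911 bp beside the start of an antisense RNA gene 58 bp away. ZNF320 scored 182 and its neighbour ZNF888 169, over 1344 and 1455 bp. All 4 are genes with 11 to 17 fingers and a KRAB-type string, and none had any shLacZ peak at the start. ZNF544 scored 165, ZNF347 156, ZNF823 156 and ZNF493 153. Of the 79 members, ZNF681 was the 1 with a shLacZ peak that reached into the 1 kb window with its midpoint outside.

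The 4 members with a start peak in shLacZ alone all lay near the lower limit of the score. ZNF653 scored 57.6, ZNF584 55.3, ZNF83 54.8 and ZNF799 51.3. No shRRN3 peak reached into the window of any of them. ZNF799 and ZNF83 share their start region with another annotated gene 3 and 63 bp away, and ZNF653 has one 141 bp away, so for these 3 the peak cannot be assigned to the member. The same doubt holds more widely, since the best start peak lay nearer to another annotated start in 4 of the 20 members in shLacZ and in 23 of the 95 in shRRN3. The share among all protein-coding genes with a start peak was not counted. ZNF584 has no other annotated start within 1 kb, its nearest neighbour start lying 1283 bp away.

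Among the members with a start peak, the number of fingers ran from 1 to 32. ZNF91, with 32 fingers, represses SVA retrotransposons and scored 86.1 in shRRN3 alone. ZNF850, with 30, scored 51.3 and ZNF845, with 26, scored 56.2, both in shRRN3 alone. At the other end ZNF428, with 1 finger, scored 59.7, ZNF414, with 3, scored 129 and ZNF114, also with 3, scored 53.4, again in shRRN3 alone. The median number of fingers was 12 in members with a shRRN3 start peak and 13 in those without, and the KRAB-type string was found in 68.4% and 64.9%.

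The clusters were then taken in order along the chromosome. Cluster 1 (chr19:2819868-2944971) had 5 members, of which ZNF77 alone had a start peak, of score 60 in shRRN3. Cluster 2 (chr19:8509678-9793180) had 1 of 13 members with a start peak in shLacZ, ZNF562, and 6 in shRRN3, the highest at ZNF559 (132), whose peak lies nearer to the start of the readthrough gene ZNF559-ZNF177. Cluster 3 (chr19:11483427-12640098) had 5 of 25 members in shLacZ, namely ZNF653, ZNF627, ZNF844, ZNF625 and ZNF799, and 11 in shRRN3, led by ZNF69. Cluster 4 (chr19:19668796-24129968), the longest, had 4 of 37 in shLacZ and 16 in shRRN3, led by ZNF493. Its 4 shLacZ members, ZNF253, ZNF93, ZNF708 and ZNF675, were all in shRRN3 as well.

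Cluster 5 (chr19:34677639-34964229) had 5 members, with ZNF302 the only start peak, of score 86.0 in shRRN3. Cluster 6 (chr19:36182276-37817300) had none of its 26 members in shLacZ (0%, upper limit 13.2%) and 16 in shRRN3 (61.5%, 40.6% to 79.8%). Cluster 7 (chr19:43525497-44500524) had 1 of 23 in shLacZ, ZNF227, and 10 in shRRN3, with ZNF45 the highest at 98.1. Cluster 8 (chr19:51571283-53580269) had 6 of 39 in shLacZ, the most of any cluster, and 16 in shRRN3, with ZNF528 on top.

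Cluster 9 (chr19:55476617-56671783) had none of 16 members in shLacZ and 3 in shRRN3, which were ZNF524 at 82.8, ZNF865 at 60.9 and ZNF787 at 52.8. Cluster 10 (chr19:57191500-58481230), next to the chromosome end, had 3 of 43 in shLacZ (ZNF417, ZNF274 and ZNF584) and 13 in shRRN3, headed by ZNF274. The 14 members outside clusters had none in shLacZ and 2 in shRRN3, ZNF114 (53.4) and ZNF473 (98.1). The number was thus higher in shRRN3 in every cluster and outside. The 95% intervals of the 10 clusters overlapped one another within each list. Such overlap is not a test between clusters, and none was run, so the clusters are not ordered here.

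**Figure D4:**
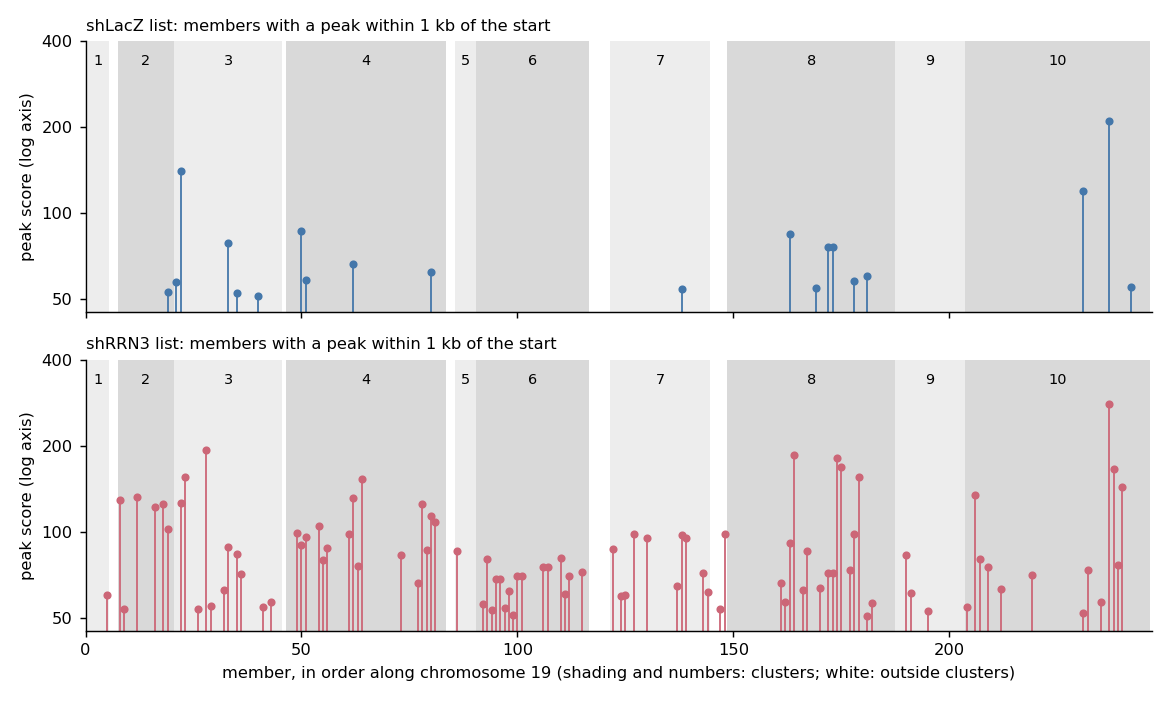
Each point is a member with a start peak, in order along chromosome 19 (horizontal axis), with the score of its best start peak on a logarithmic vertical axis, for the shLacZ list (top) and the shRRN3 list (bottom); shaded bands with numbers are the 10 clusters. Cluster 6 is empty in shLacZ and holds 16 points between 51.3 and 81.0 in shRRN3, while the highest point of both lists is ZNF274 in cluster 10, at 211 and 281.

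Of the clusters, number 6 had the widest gap between the lists. Its 16 members with a shRRN3 start peak had 13 distinct peaks, because ZNF529 and ZNF382, ZNF790 and ZNF345, and ZNF585B and ZNF383 are pairs of opposite strands that share a peak, with scores of 68.1, 69.8 and 75.2. The highest score was that of ZNF569, 81.0, followed by ZNF566, 80.5. The lowest was ZNF850 at 51.3, and ZNF461, which has no other annotated start within 1 kb, had 54.3. ZNF146, a zinc finger protein made almost wholly of fingers, had 56.1. All lay under the limit of 102.86, so none remains in the reduced shRRN3 list, and 6 of the 13 peaks lay under 65.58.

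The genes between the members of cluster 6 had the same pattern of lists. Of 6 other protein-coding genes within the stretch, all 6 had a start peak in shRRN3 alone, among them the zinc finger genes ZFP82 (107), ZFP14 (98.1) and ZFP30 (56.3). The peaks of 2 of the others are also those of the neighbouring members ZNF790 and ZNF607. Without cluster 6, 20 of the 220 other members had a start peak in shLacZ and 79 in shRRN3. This selection of cluster 6 was made after its values were seen.

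Peaks over the whole gene were counted next, as any overlap with the gene from start to end. In shLacZ 31 members (12.6%, 8.73% to 17.4%) had at least 1, beside 11.8% of all protein-coding genes. In shRRN3 129 (52.4%, 46.0% to 58.8%) had at least 1, beside 33.8%. No peak at the start or over the gene in either list was found for 112 members, a count not made for all protein-coding genes. Among the ZNF genes of other chromosomes the shares were 13.4% in shLacZ and 43.5% (37.4% to 49.8%) in shRRN3. The lists placed 37 and 160 distinct peaks over the members or within 1 kb of their starts. Of the 37, 20 lay at a start, 10 in introns, 6 over the last exon and 1 over another exon. Of the 160, 97 lay at a start, 46 in introns, 10 over the last exon, 6 over other exons and 1 just outside a gene. A peak of the other list overlapped 62.2% of the 37 shLacZ peaks and 13.8% of the 160 shRRN3 peaks, beside 78.6% and 21.4% for the peaks of the other protein-coding genes of chromosome 19.

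**Figure D5:**
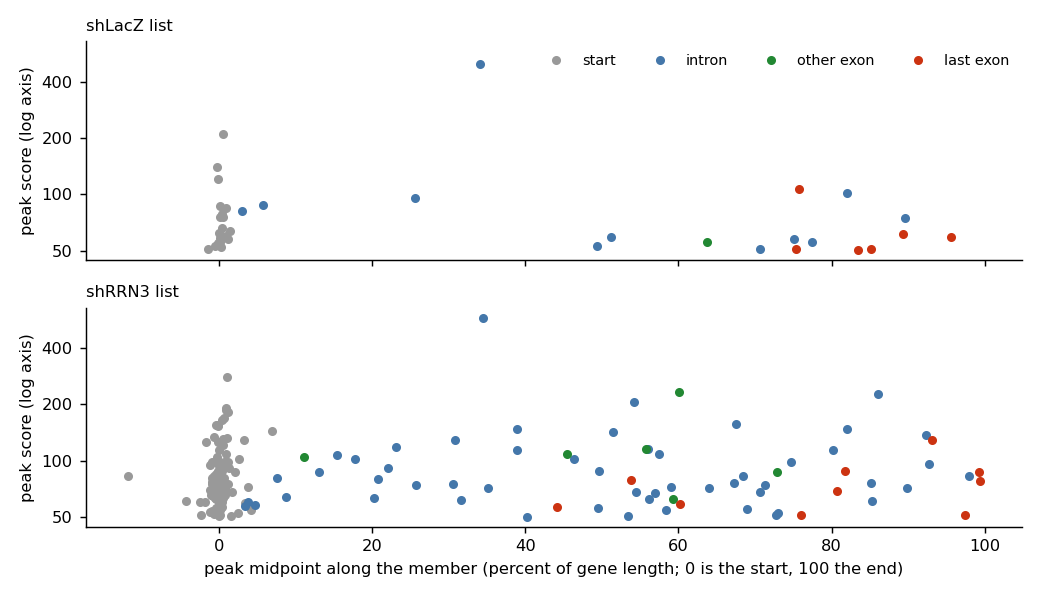
Each point is a peak over a member, placed by its midpoint in percent of the gene length (horizontal axis, 0 is the start and 100 the end) and by its score on a logarithmic vertical axis, for the shLacZ list (top) and the shRRN3 list (bottom); colours give the class of the peak. In both lists the highest point is the intron peak of ZNF43, at 496 and 581.

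The highest-scoring peak over any member was in an intron of ZNF43, a gene of cluster 4 with 19 fingers and no KRAB-type string in its annotated coding sequence. It scored 496 over 1387 bp in shLacZ and 581 over 1150 bp in shRRN3, the peaks overlapped, and the nearest annotated start of any gene was 9498 bp from the middle of the shLacZ peak. ZNF43 had no start peak in either list. Of the words of 32 bases in these peaks, 15% and 17.2% recur elsewhere in hg38.

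The 5 members with the most peaks were examined for where these lay. ZNF83 had 3 peaks over the gene in shLacZ and 5 in shRRN3, which together is the most of any member. Its 5 shRRN3 peaks were all intronic and scored 74.4 to 206, and the 2 intronic shLacZ peaks, of 59.3 and 95.9, each overlapped 1 of them. ZNF675 had 3 and 4, with shRRN3 intron peaks of 227, 148 and 76.2 near the far end of the gene. ZNF582 had 1 and 5, ZNF431 2 and 3, and ZNF627 2 and 2. ZNF627 and ZNF675 had a start peak among these in both lists, ZNF431 in shRRN3 and ZNF83 in shLacZ. ZNF83 and ZNF675 are also among the longest of these genes, at 96500 and 161590 bp, against a median of 25902 bp for the members.

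Some peaks away from the member's own start lay at the start of another annotated gene. This was so for 15 of 63 shRRN3 peaks (23.8%) and for none of the 17 in shLacZ. For the other protein-coding genes of chromosome 19 it was so for 25 of 153 (16.3%) and 8 of 38 (21.1%). In ZNF584, whose own start peak was in shLacZ alone, a shRRN3 peak of score 118 lay 20.0 bp from the start of the noncoding gene ZNF584-DT. The shRRN3 peak over the last exon of ZNF490, of score 129, is such a case as well. The 48 other shRRN3 peaks had no annotated start within 1 kb, and among these the highest after ZNF43 was over an exon of ZNF846 (232).

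Peaks over the last exon, where the fingers are encoded, were found at few members. In shLacZ there were 6 members (2.44%, 0.900% to 5.23%), beside 0.698% of all protein-coding genes with more than 1 exon. In shRRN3 there were 9 (3.66%, 1.69% to 6.83%), beside 2.67%, and 3 members (1.22%, 0.252% to 3.52%) were in both, beside 0.513%. These counts include peaks near starts. Without peaks within 1 kb of an annotated start there were 6 members in shLacZ (2.44%), beside 0.513% of such genes. In shRRN3 there were then 8 (3.25%), beside 2.00%. With the midpoint in the exon the members kept 6 and 9, beside 0.508% and 1.63%. The last exons of the members are long, with a median of 3377 bp against 1413 bp for all protein-coding genes. Per megabase of last exon the members had 6.51 peaks in shLacZ and 10.9 in shRRN3, beside 4.19 and 16.1 for all protein-coding genes and 11.2 and 27.2 for the other genes of chromosome 19. Per length, then, the members did not stand above both of these groups in either list. They stood above the ZNF genes of other chromosomes, which had 2.06 and 8.23 from 2 and 8 peaks. The members' rates came from 6 and 10 peaks. All these rates count any overlap, peaks near starts included.

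ZNF699, whose shared stretch is printed above, had a last-exon peak of score 107 in shLacZ and 51.4 in shRRN3 and no start peak in either list. ZNF714 had 50.9 in shLacZ and 87.8 in shRRN3, and ZNF431 59.4 and 78.4, but the peaks of each lay at different places in the exon. The other shLacZ members were ZNF607 (61.0), ZNF442 (51.2) and ZNF302 (50.2). In shRRN3 alone, ZNF565 scored 86.8, ZNF582 78.7, ZNF527 69.2, ZNF726 58.7 and ZNF345 56.5. In shLacZ 5 of the 6 scores lay under the median of the list, 65.6, and in shRRN3 5 of the 10 peaks lay under its median, 74.7.

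Near relatives in the clusters share sequence, and how the authors treated reads that fit several places is not given in the sources used here. As a measure of this, the share of words of 32 bases that recur elsewhere in hg38 was taken. At start peaks of members its median was 0.388% in shLacZ and 0% in shRRN3. Over last exons it was 13.2% and 4.03%, and in introns 6.45% and 4.63%. The highest shares, 41.1% and 56.5%, were those of the start peaks that ZNF28 and ZNF468 share, so the peaks of this pair are the least certain. The part of repeated sequence in these counts was not tested.

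The starts of the members were searched for short sequence words. In the 300 bases from 250 before the start, the ETS-type word CCGGAAG, read on both strands as all words were, was found in 101 members (41.1%), beside 11.9% of all protein-coding genes and 25.6% of the ZNF genes of other chromosomes. In 90 of the 101 (89.1%) its centre lay within 50 bp of the start, beside 62.9% of all protein-coding genes with the word. The CCAAT word was found in 52.8%, beside 35.9%, and in 41.2% of the ZNF genes of other chromosomes. The GC box GGGCGG was found in 60.6%, beside 52.4%. It was in 55% of the ZNF genes of other chromosomes. Among the other protein-coding genes of chromosome 19 it was in 59.5%, close to the share of the members, and the CCAAT word in 36.8%. TATAAA was found in 7.32%, beside 10.8%. GCATGCGC, of the NRF1 type, was in 4.47% beside 3.78%, AAGATGGC, of the YY1 type, in 4.47% beside 3.03%, and TCTCGCGA in 1.22% beside 1.46%. None of these words contains another. Of the starts printed above, that of ZNF274 held 5 GC boxes and 1 ETS-type word. That of ZNF69 held 1 GC box and no ETS-type word, and it also held the CCAAT word, which is not in capitals. The stretch of ZNF584 held 2 GC boxes without the ETS-type word, and that of ZNF461 the reverse, 1 ETS-type word without a GC box.

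The words were then set against the lists. Of the members with a GC box 45% (36.8% to 53.3%) had a shRRN3 start peak, and of those without it 28.9% (20.1% to 39.0%), beside 29.7% and 17.1% of all protein-coding genes. For the ETS-type word the shares were 41.6% (31.9% to 51.8%) with it and 36.6% (28.7% to 44.9%) without it, beside 46.1% and 20.7%. The CCAAT word went the other way, with 36.2% (27.9% to 45%) with it and 41.4% (32.3% to 50.9%) without it, beside 25.7% and 22.6%. The intervals with and without the word overlapped in the members for each of these 3 words, and also for the other 4, which 3 to 18 members held. Such overlap is not a test of a difference, and none was run. A word match is a description of the sequence and not a bound site.

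Base composition and close neighbours were set beside the counts as well. The median GC share of the start windows was 58.0% in the members and 60.3% in all protein-coding genes. Where it was under 50%, 34.8% of 23 members had a shRRN3 start peak (16.4% to 57.3%), beside 10.8% of all such genes. At 50% to under 60% it was 35.5% of 124 members (27.1% to 44.6%), beside 26.3%, and at 60% to under 70% it was 41.3% of 92 (31.1% to 52.1%), beside 31.1%. Of the 7 members at 70% or more, 5 had one (71.4%, 29% to 96.3%), beside 24.3% of all such genes. The intervals of the members' bands overlapped, and the bands were not tested against each other. Another annotated gene started within 1 kb of 90 members (36.6%), namely of 45.3% of those with a shRRN3 start peak and 31.1% of those without. The part of these neighbours in the result was not tested, and the shares were not counted over all protein-coding genes. No other start lay within 2 kb of 144 of the 246 members and of 12515 of the 20033 protein-coding genes. Among these 144 members 46 (31.9%) had a shRRN3 start peak, beside 15.5% of all such genes.

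The partners through which KRAB zinc finger proteins repress were looked at for comparison, as a list of 25 corepressor genes. In shLacZ 7 of them had a start peak and in shRRN3 13, with 6 in both, where the shares over all protein-coding genes were 7.56%, 23.7% and 6.41%. TRIM28, the corepressor that the KRAB domain binds, scored 145 and 153. CBX5, which encodes the HP1 alpha reader of methylated lysine 9, scored 101 and 650.0, and CBX3, which encodes HP1 gamma, 247 and 175. HDAC1, a histone deacetylase, scored 93.9 and 113. MPHOSPH8 and TASOR, of the HUSH silencing complex, scored 86.7 and 103, and 61.7 and 82.5.

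ATF7IP, the partner that stabilises SETDB1, had a start peak of 145 in shLacZ alone. SETDB1 itself, the lysine 9 methyltransferase, had one in shRRN3 alone, with 50.9, and so had CBX1 (114), EHMT1 (104), MORC2 (103), SMARCAD1 (79.8), SUV39H2 (71.0) and SUMO2 (56.3). The 11 others, among them ATRX, DAXX, DNMT1, UHRF1 and EHMT2, had none in either list.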

How the data were processed

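The deposited lists, made by the authors for each library on its own, hold the position, a name and a score for every Pol II peak. MACS appears in the peak names, and the submitters' processing notes name hg38. The version, the aligner, the treatment of duplicates and of reads that fit several places, the threshold and whether the input served as control are not given in the sources used here. The deposited score was assumed to be 10 times −log10 of the p-value.

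Genes came from GENCODE release 44, and starts were the bounds of the gene span. A start peak had its midpoint within 1 kb of the start. Peaks over genes and over the last exon of the Ensembl canonical transcript overlapped by at least 1 bp. Peaks near starts were not removed from the last-exon counts. Where peaks were sorted into classes, the midpoint decided, and the start came first. Fingers were counted as C, 2 to 4 residues, C, 12 residues, H, 3 to 5 residues, H. Clusters ended at gaps over 500 kb. Shares have exact Clopper-Pearson intervals. The members, lists and rules were chosen with earlier results of these data known. Named members were those with the highest scores in each group of lists, in each cluster and over last exons, those with most peaks, and those with most and fewest fingers. Any other gene named was picked once its values were known.

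The counting was tested on simulated peaks over 20033 genes, where 200 of 200 planted start peaks were recovered and 0 of 200 decoys counted. Planted peaks and decoys were placed only at genes far from other protein-coding starts. The test therefore covers the counting rule and not starts that share a peak. Member counts were checked with bedtools 2.31.1. Python 3.11.15, pandas 2.3.3, numpy 2.4.6, scipy 1.17.1 and matplotlib 3.10.9 were used.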

Additional observations from a re-analysis of the deposited data

How the results depend on the processing

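Of 63 values of 12 counts under other settings, 45 stayed within 1.5 times the reported count. With the start of the Ensembl canonical transcript, 17 members had a start peak in shLacZ (6.91%, beside 8.18% of all protein-coding genes). The members then stood below all genes in shLacZ and no longer above. In shRRN3 110 members had one (44.7% beside 25.4%), and 2 had one in shLacZ alone (0.813% beside 1.22%). With a score of at least 65.58 in both lists, start peaks fell to 9 members in shLacZ (3.66%, beside 4.43% of all protein-coding genes, so that the members stood below and no longer above), 8 in both (3.25% beside 3.70%) and 1 in shLacZ alone (0.407% beside 0.724%), last-exon peaks to 1 in shLacZ (0.407% beside 0.359%) and 0 in both (beside 0.296%), and gene peaks to 16 in shLacZ (6.50% beside 6.45%). In shRRN3 66 members (26.8%) then kept a start peak, beside 17.9% of all protein-coding genes. When only the 3920 highest-scoring shRRN3 peaks were used, 21 members had a start peak in shRRN3 (8.54%, beside 9.74%), with 4 in both (1.63% beside 4.24%), 16 members had one in shLacZ alone (6.50% beside 3.32%) and 17 in shRRN3 alone (6.91% beside 5.50%), while last-exon peaks were left at 1 member in shRRN3 (0.407% beside 0.999%) and 0 in both (beside 0.359%) and gene peaks at 39 in shRRN3 (15.9% beside 14.3%). Fewer peaks remain by construction in these settings. The 144 members without another annotated start within 2 kb had 11 start peaks in shLacZ (7.64% beside 4.67%), 46 in shRRN3 (31.9% beside 15.5%), 0 in shLacZ alone (beside 0.967%) and 35 in shRRN3 alone (24.3% beside 11.7%). A gap of 250 kb gave 12 clusters and one of 1 Mb gave 9. No paired analysis was possible because the lists carry no replicate numbers, and no library could be left out. Depth, unknown here, limits how many peaks a list can hold, and its part in the difference between the lists was not tested.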
